A study of Homo sapiens with 8 samples.

Results

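Ribosome footprints were compared with input RNA in U2OS cells that overexpressed QKI7 and had been stressed with arsenite. Of the 26902 genes and RNAs in the table, 8202 were kept: those with a mean input of at least 1 TPM (transcripts per 1000000, a length-corrected share of a library) in the QKI7 cells, leaving out spike-ins, ribosomal and other small structural RNA classes, microRNA precursors and histone genes. U2OS is an established human osteosarcoma line. The 4 libraries were 2 QKI7 inputs (RNA from the lysate before ribosomes were collected) and 2 QKI7 footprints (RNA of 17 to 34 nt recovered with ribosomes). All cells had received 0.5 mM NaAsO2 for 1 h, and cells with an empty vector, under the same treatment, gave another 2 inputs and 2 footprints. The whole series was stressed, so no value here separates arsenite from its absence. The labels do not name the promoter of the construct or say whether the cells are 1 clone. Nor do they say whether the 2 libraries of a group were grown apart, so each p-value reflects library-to-library spread that may be technical.

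In ribosome profiling a nuclease trims RNA to the stretch that a ribosome shields, and the footprint level of an mRNA divided by its RNA level is read as its ribosome load. Arsenite acts through the kinase HRI to phosphorylate the initiation factor eIF2, which lowers initiation on most mRNAs and drives untranslated mRNAs into stress granules. A set of stress mRNAs with upstream reading frames can still be translated. mRNAs for ribosomal proteins and some elongation factors start with a 5′ terminal oligopyrimidine tract (TOP), through which the mTOR pathway controls their translation. QKI7 is a mainly cytoplasmic form of the STAR-family protein QKI, which binds RNA.

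Start sites as annotated by RefSeq on GRCh38.p14 are shown for members that recur below, because the TOP tract is a property that sets the ribosomal protein mRNAs apart. Each line runs from 5 bases before to 20 bases after the annotated start, 5′ to 3′ on the gene's strand. Capitals mark the tract, defined as a C at the start followed by at least 4 pyrimidines. The windows are chr3:101686699-101686723 (RPL24, minus strand), chr3:197950185-197950209 (RPL35A, plus), chr17:74203673-74203697 (RPL38, plus), chr11:75399513-75399537 (RPS3, plus), chr6:73521013-73521037 (EEF1A1, minus), chr5:86617936-86617960 (COX7C, plus), chr6:31815538-31815562 (HSPA1A, plus) and chr10:128126404-128126428 (MKI67, minus). HSPA1A and MKI67, shown for contrast, have no such tract in this window.
RPL24: tctctCTTTCTTTTCgccatctttt
RPL35A: tcgtcCTTCTCTTaccgccatcttg
RPL38: tcgttCTTTTTCgtccttttccccg
RPS3: cacttCCTTTCCTTTCagcggagcg
EEF1A1: acgttCTTTTTCgcaacgggtttgc
COX7C: tctttCTTTTCagtccttgcgcacc
HSPA1A: cggataacggctagcctgaggagct
MKI67: ctggaagaaggaagtggagggctga

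Most kept rows had a smaller share of the footprints than of the input, and a minority, among them most mRNAs of ribosomal proteins and respiratory chain subunits, had a larger one. Values are given in rescaled TPM, after each library's kept rows were brought to the same sum of 1000000, and the log2 ratio of footprint to input was taken on value + 5, which understates the ratios of low rows. The median log2 ratio over the 8202 rows was -1.46, with a 5th percentile of -3.13 and a 95th of 1.54. limma called 979 rows higher in footprints (11.9%) and 6062 lower (73.9%) at an adjusted p under 0.05. Tested against a log2 ratio of 1 with limma's treat, 471 rows were higher (5.74%) and 3908 lower (47.6%). The footprints lay above both inputs in 1166 rows (14.2%) and below both in 6496 (79.2%). With 2 libraries against 2, an exact two-sided permutation test cannot go below p = 0.333, so every call depends on limma's pooling of variance over rows.

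The split between higher and lower depends on how the libraries are scaled. Under equal sums, the 10 highest rows of each library took 27.05% and 25.9% of the footprints but 12.96% and 13.45% of the inputs. With median-of-ratios scaling, which sets the typical row to no change, 2453 rows were higher (29.9%) and 2712 lower (33.1%). Lists of genes are therefore also given relative to the median of all rows, a measure that depends less on the scaling. Rescaling a library can still move it, because a constant is added to each value before the log is taken. For stress granule proteins it went from 0.106 to -0.039 with rescaling over all rows outside the dropped classes. For mitosis and spindle genes it went from -0.095 to 0.089 under median-of-ratios scaling. A row that is called lower with a log2 ratio between about -1.5 and 0 lies above the typical row. Small ratios above 0 can turn too: rescaled over all rows outside the dropped classes, RPS6 stood at -0.13, HSPA8 at -0.11 and ACTB at -0.069.

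**Figure D1:**
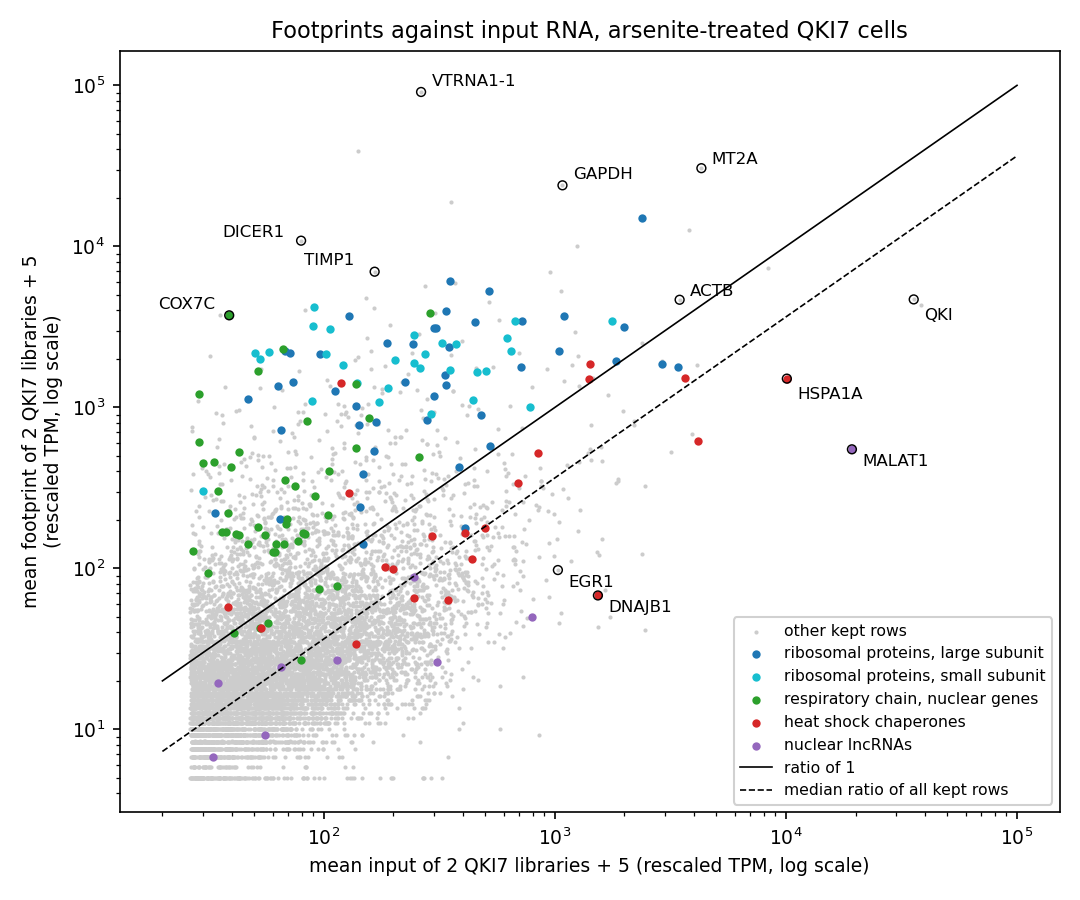
Mean footprint of the 2 QKI7 footprint libraries against the mean input of the 2 QKI7 input libraries, each in rescaled TPM with 5 added, on log axes. Ribosomal proteins and nuclear-encoded respiratory chain subunits lie mostly above the solid line (ratio of 1), while most rows lie around the dashed line (the median log2 ratio of -1.46), with HSPA1A, DNAJB1, EGR1, QKI and MALAT1 to its right.

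Mesenchymal markers fitted the labelled cell type: 8 of 10 were kept, with a summed level of 145 and 133 TPM in the QKI7 inputs, and no marker was listed at 0. VIM, the intermediate filament protein vimentin and the highest of them in the inputs, had 1731 and 1650 rescaled TPM in the inputs and 1180.0 and 1185.0 in the footprints, a log2 ratio of -0.51 that became 1.02 under median-of-ratios scaling. None of the 6 epithelial, 6 blood or 5 neural markers reached the input minimum, and their sums stayed between 0.26 and 1.67 TPM in the inputs. The kept rows held 4.79% and 4.52% of all deposited input TPM and 0.586% and 0.591% of footprint TPM. The median kept row had 0.12 and 0.13 TPM in the footprints as deposited, with values given to 2 decimals, and 273 and 267 rows were listed at 0. Replicate QKI7 libraries correlated across rows at r = 0.991 for inputs and 0.952 for footprints.

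The mRNAs of the ribosome itself were the most footprint-rich group. All 30 kept small-subunit proteins were higher in footprints, and their median log2 ratio of 2.95 lay 4.40 above that of all rows. Of 45 kept large-subunit proteins, 39 were higher and 3 lower, beside 11.9% and 73.9% of all rows. Their median lay 3.90 above all rows. Together the large-subunit mRNAs took 2.40% and 2.41% of the inputs and 9.54% and 9.69% of the footprints, and the small-subunit mRNAs 0.957% and 0.961% of the inputs and 6.03% and 6.24% of the footprints.

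RPS26, a small-subunit protein, had 84.5 and 86.0 rescaled TPM in the inputs and 3941 and 4395 in the footprints. That is a log2 ratio of 5.53 (SE 0.066, limma adjusted p = 4.24e-09). RPS15A, RPS28 and RPS13 followed at 5.43, 5.26 and 5.24. At the other end RPS6, whose protein is the classic substrate of S6 kinase, had 768 and 774 in the inputs against 994.2 and 993.7 in the footprints, a log2 ratio of 0.36 that was still past the threshold (adjusted p = 0.000168). The 2 kinds of library did not overlap for either gene.

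Among large-subunit mRNAs RPL35A stood highest, with 60.1 and 65.7 rescaled TPM in the inputs and 2232 and 2265 in the footprints (log2 ratio 5.05, SE 0.067, adjusted p = 6.33e-09). RPL29, RPL21 and RPL34 had log2 ratios of 4.93, 4.85 and 4.58. RPL24 combined a high level with a high ratio, at 341 and 352 in the inputs and 5999 and 6199 in the footprints, a log2 ratio of 4.12. RPL38 was the most abundant in the footprints, with 2312 and 2436 in the inputs and 14921 and 15292 in the footprints, a log2 ratio of 2.67. RPL13A was the lowest, falling from 402 and 400.3 to 154 and 193, at a log2 ratio of -1.2 (adjusted p = 8.51e-05). Under median-of-ratios scaling RPL13A stood at 0.31 with an adjusted p of 0.0764.

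Ribosomal protein genes have many processed pseudogenes, and footprints are too short to tell some copies apart; the sources used here do not say how shared reads were divided. Across kept protein-coding rows, the median log2 ratio was -1.52 for the 6176 genes with no pseudogene named after them in RefSeq, -0.94 for 1178 with 1 to 4, 0.68 for 155 with 5 to 9, and 1.38 for 125 with 10 or more. Without the ribosomal proteins the last 2 classes stood at 0.18 (135 genes) and -0.45 (72 genes). RPL21 has 137 named pseudogenes, RPS26 59, RPL35A 36 and RPL24 8; among other named genes PPIA has 87 and GAPDH 65. The part of these copies in the ratios was not tested.

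The TOP tract was common in these lists but did not by itself mark a high ratio. It was present at 27 of 36 large-subunit and 18 of 23 small-subunit genes with a start in RefSeq's table, against 4.07% of all 35116 starts and 501 of 6366 kept protein-coding genes (7.87%). A gene with several annotated starts was counted if any of them had the tract. The median log2 ratio of kept genes with the tract was -1.0, against -1.45 for those without. Leaving out the ribosomal proteins, the 456 genes with the tract had a median of -1.14 against -1.45, with 65 higher and 312 lower. Within the large-subunit list, members with the tract had a median of 2.67 and those without 1.70; within the small-subunit list the medians were 3.13 and 2.76. The tract was looked for only at the annotated start base itself. RPS26 has none there by this definition, but a pyrimidine run (ttttcttcc) lies within the 20 bases after its annotated start. No match therefore does not mean that a gene lacks a pyrimidine tract near its start.

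Other TOP mRNAs and the elongation factors were mixed. Of 19 kept members 12 were higher and 6 lower, beside 11.9% and 73.9% of all rows, with a median 2.36 above all rows. EEF1A1, which brings aminoacyl-tRNA to the ribosome, had 929 and 969 rescaled TPM in the inputs and 6882 and 6915 in the footprints (log2 ratio 2.86, adjusted p = 8.47e-09). BTF3 and NACA, which form the nascent-chain-associated complex, stood at 3.05 and 2.79, and EIF3E, a subunit of the eIF3 complex, at 2.88. PABPC1, the cytoplasmic poly(A)-binding protein, lay at the bottom with 839 and 849 in the inputs and 258 and 215 in the footprints, a log2 ratio of -1.82. TPT1, a TOP mRNA for a tumour-associated protein, had 225 and 227 in the inputs against 139.8 and 140.5 in the footprints; its log2 ratio of -0.67 became 0.82 under median-of-ratios scaling.

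Initiation factors ran both ways. Of 32 kept members 11 were higher and 14 lower, beside 11.9% and 73.9% of all rows, with a range from -3.60 to 3.80. EIF3K, a small subunit of eIF3, had 168 and 142 rescaled TPM in the inputs and 2138 and 2299 in the footprints (log2 ratio 3.80, adjusted p = 6.5e-08). EIF3A, the largest subunit of the same complex, had 1507 and 1523 in the inputs and 111 and 130.3 in the footprints (log2 ratio -3.60, adjusted p = 1.15e-07). The inputs and footprints of both genes were far apart, in opposite directions. The helicase EIF4A1 stood at 2.59, EIF5A at 2.54, EIF6 at 2.52, the start-codon factor EIF1 at 1.86, and EIF2S1, the eIF2 subunit phosphorylated under arsenite, at 1.59.

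**Figure D2:**
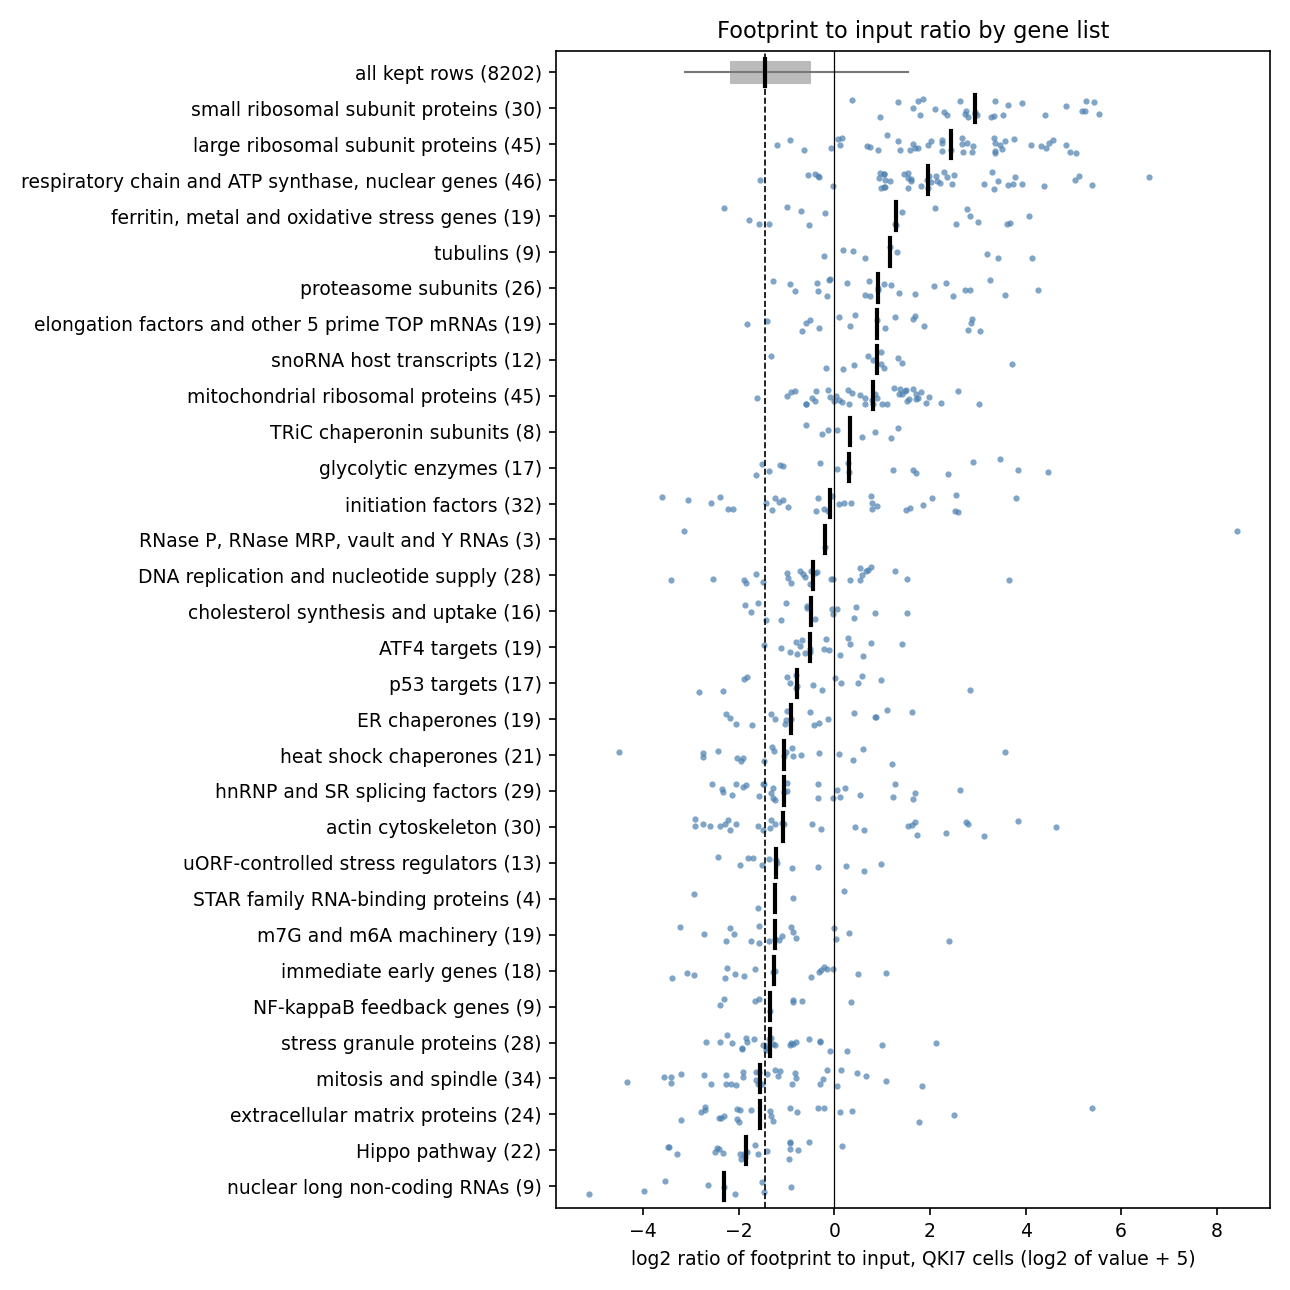
Log2 ratio of footprint to input in QKI7 cells for every kept member (points) of each gene list with at least 3 of them, with the list's median as a black bar and the number of members in brackets; the top line gives the middle of all 8202 rows (box from the 25th to the 75th percentile, line from the 5th to the 95th). The dashed line is the median of all rows (-1.46) and the solid line a ratio of 1: both ribosomal protein lists and the respiratory chain lie furthest to the right, and Hippo pathway genes and nuclear lncRNAs furthest to the left.

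Nuclear-encoded subunits of the respiratory chain and ATP synthase were nearly as footprint-rich as ribosomal proteins. Of 46 kept members 40 were higher and 3 lower, beside 11.9% and 73.9% of all rows. Their median log2 ratio was 1.95, or 3.41 above all rows. They took 0.321% and 0.309% of the inputs and 2.35% and 2.51% of the footprints. COX7C, a small subunit of cytochrome c oxidase, had 34.2 and 33.6 rescaled TPM in the inputs and 3532 and 3917 in the footprints, a log2 ratio of 6.58 (SE 0.072, adjusted p = 3.78e-09). It has a TOP tract, as shown above, but the tract was not common in this list. Of 40 members with a start sequence 4 had it (10.0%), beside 7.87% of kept protein-coding genes. All 4 were called higher, and of the members without the tract 31 were higher and 3 lower. COX8A, COX6B1 and COX7B of the same enzyme had log2 ratios of 5.39, 5.12 and 5.04, and ATP5E, the epsilon subunit of ATP synthase, 3.74. NDUFA10 of complex I was the lowest at -1.56, with 73.3 and 76.5 in the inputs against 23.9 and 20.3 in the footprints; under median-of-ratios scaling it stood at -0.20 and was not called.

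Mitochondrial ribosomal proteins and the proteasome showed the same direction with smaller ratios. Of 45 kept mitochondrial ribosomal proteins 26 were higher and 6 lower (median 2.26 above all rows), with MRPL13 highest at 3.02 and MRPS5 lowest at -1.61. MRPL13 had 20.7 and 25.4 rescaled TPM in the inputs and 240.4 and 203 in the footprints. MRPS28 followed at 2.58. Of 26 kept proteasome subunits 18 were higher and 5 lower (median 2.37 above all rows). Both lists stand beside 11.9% higher and 73.9% lower over all rows. PSMB3, a beta subunit of the catalytic core, had 67.6 and 69.6 in the inputs and 1374 and 1417 in the footprints (log2 ratio 4.25, adjusted p = 1.35e-07). PSMA4, an alpha subunit, stood at 3.56, while PSMD7, a subunit of the regulatory cap, stood at -1.28 and at 0.21 under median-of-ratios scaling (adjusted p = 0.0782). These 2 lists, the respiratory chain and both ribosomal protein lists together held 192 kept rows, of which 153 (79.7%) were higher; those 153 were 15.6% of all rows called higher.

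Glycolytic enzymes, tubulins and the chaperonin TRiC lay on the footprint-rich side as well. Of 17 glycolytic enzymes 9 were higher and 5 lower, beside 11.9% and 73.9% of all rows (median 1.76 above all rows). GAPDH had 1079 and 1066 rescaled TPM in the inputs and 23473 and 24404 in the footprints, a log2 ratio of 4.47 (SE 0.035, adjusted p = 8.03e-10). LDHA, LDHB and PGK1 had ratios of 3.84, 3.46 and 2.91, and HK1, the hexokinase that opens the pathway, -1.65, with no call under median-of-ratios scaling (-0.16). Of 9 tubulins 6 were higher and 0 lower, with TUBA1B at 4.12, its near-identical copy TUBA1C at 3.43 and TUBB4B at 3.19. Reads shared by TUBA1B and TUBA1C may have been split between them. TRiC, which folds tubulin and actin, had 4 of 8 subunits higher and 2 lower, with CCT8 highest at 1.32.

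Actin cytoskeleton mRNAs ran both ways. Of 30 members 12 were higher and 17 lower, beside 11.9% and 73.9% of all rows. The list's median lay 0.378 above that of all rows. It was -0.293 relative to all rows with the footprint minimum of 0.2 TPM and -0.087 with a pseudocount of 20. TMSB4X, the actin-sequestering thymosin, had 153 and 166 rescaled TPM in the inputs and 4319 and 3927 in the footprints (log2 ratio 4.65, adjusted p = 1.08e-08). TAGLN2 and the myosin light chain MYL6 stood at 3.85 and 3.12. MYH10, a myosin heavy chain, was lowest at -2.92, from 215 and 211 down to 25.6 and 22.0. ACTB, one of the more abundant mRNAs, was close to even: 3453 and 3466 in the inputs and 4604 and 4706 in the footprints, a log2 ratio of 0.43 (adjusted p = 2.48e-05).

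PPIA, the abundant prolyl isomerase cyclophilin A, and LGALS1, the secreted lectin galectin-1, were among the highest rows with an input of at least 10 TPM. PPIA had 266 and 269 rescaled TPM in the inputs and 5569 and 5749 in the footprints (log2 ratio 4.38), and LGALS1 362 and 368 against 5989 and 5927 (log2 ratio 4.01). Under the same input minimum RPLP2, RPS3 and RPL27 completed the 10 highest protein-coding rows with MT1X, GAPDH, RPL24, LDHB and ATP5E, at log2 ratios of 3.56, 3.53 and 3.37. In all 10 the footprints lay above both inputs.

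The 3 metallothioneins named here had high ratios, while SLC30A1, FTH1 and FTL of the same list were lower in footprints. MT2A, a metallothionein (a small cysteine-rich protein that binds metals), had 4509 and 4089 rescaled TPM in the inputs and 30135 and 31042 in the footprints, a log2 ratio of 2.83 (SE 0.062, adjusted p = 4.71e-08). MT1X had 299 and 298 against 3968 and 3734 (log2 ratio 3.67), and MT1E 1289 and 1199.8 against 10005 and 10044 (log2 ratio 3.01). In all 3 genes the footprints lay well above the inputs. MT2A, FTH1, FTL, HSPA1A, HSP90AA1, RPL38 and RMRP lie outside the rule for named genes and were chosen after their values were seen.

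The antioxidant enzymes PRDX1 and TXN stood at 4.07 and 3.61. PRDX1, a peroxiredoxin that reduces hydrogen peroxide, had 195 and 184 rescaled TPM in the inputs and 3191 and 3315 in the footprints. The list of ferritin, metal and oxidative stress genes had 11 of 19 members higher and 6 lower, beside 11.9% and 73.9% of all rows. Its median lay 2.75 above all rows. It took 1.16% and 1.10% of the inputs and 5.11% and 5.21% of the footprints.

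Not every member of that list was footprint-rich. SLC30A1, the zinc exporter ZnT1, was abundant in the inputs (710.2 and 715 rescaled TPM) and low in the footprints (143 and 137), with a log2 ratio of -2.31 (adjusted p = 1.44e-07). FTH1 and FTL encode the ferritin chains, whose mRNAs carry an iron-responsive element near the cap. FTH1 had 1623 and 1573 in the inputs and 418 and 504 in the footprints (log2 ratio -1.79), and FTL 1425 and 1403 against 612 and 487 (log2 ratio -1.36). Both lay near the median of all rows; under median-of-ratios scaling FTH1 stood at -0.26 (adjusted p = 0.0517) and FTL at 0.17 (adjusted p = 0.253).

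The heat shock chaperones, which protect and refold proteins and are known to be induced by arsenite, were called lower about as often as all rows, and HSPA1A, HSP90AA1 and DNAJB1 lay below the typical row. Of 21 kept members 15 were lower, beside 73.9% of all rows, and 4 higher, beside 11.9%. Under median-of-ratios scaling 12 were higher and 6 lower, beside 29.9% and 33.1% of all rows. Of the 21 members 13 had a ratio above the median of all rows. The list took 2.68% and 2.68% of the inputs but 1.02% and 1.10% of the footprints. HSPA1A, the inducible HSP70, was among the most abundant mRNAs of the inputs with 10097 and 10066 rescaled TPM, and had 1405 and 1601 in the footprints. Its log2 ratio was -2.74 (SE 0.079, adjusted p = 1.47e-07). HSP90AA1, the inducible HSP90, fell from 4154 and 4197.5 to 563 and 672 (log2 ratio -2.75), and DNAJB1, the HSP40 partner of HSP70, from 1512 and 1547 to 66.5 and 59.3 (log2 ratio -4.50, adjusted p = 6.5e-08).

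DNAJB1 was the lowest of the list, and for these 3 genes no footprint library reached an input library. HSPA1A has a near-identical copy, HSPA1B, so its reads may have been split between them. HSPA8, the constitutive HSC70, was close to even with 1426 and 1390.3 in the inputs and 1758 and 1925 in the footprints (log2 ratio 0.38). HSPE1, the mitochondrial co-chaperonin, was the highest at 3.58, from 124 and 104 to 1381 and 1437, and the HSP90 co-chaperone PTGES3 stood at 1.2. The median of the list lay 0.41 above that of all rows, but at -0.87 relative to it among the 2903 rows with a footprint of at least 0.2 TPM, and at -0.06 with a pseudocount of 20.

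Promoters are shown for HSPA1A, MT2A and MT1X because heat shock factor and the metal-responsive factor MTF1 act through known short elements, and these mRNAs had ratios of opposite sign. Each line gives the 150 bases before the RefSeq start on GRCh38.p14, 5′ to 3′. Capitals mark, in HSPA1A, a heat shock element core (GAANNTTC or TTCNNGAA) and, in the metallothioneins, metal response element cores (TGCACNC or TGCGCNC, read on both strands). The coordinates are chr6:31815393-31815542, chr16:56608434-56608583 and chr16:56682320-56682469, all on the plus strand.
HSPA1A: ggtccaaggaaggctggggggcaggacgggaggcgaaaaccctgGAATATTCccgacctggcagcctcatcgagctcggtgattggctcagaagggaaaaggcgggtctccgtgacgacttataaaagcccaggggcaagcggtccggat
MT2A: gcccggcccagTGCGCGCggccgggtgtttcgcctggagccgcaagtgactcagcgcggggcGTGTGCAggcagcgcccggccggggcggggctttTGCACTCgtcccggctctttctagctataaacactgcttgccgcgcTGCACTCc
MT1X: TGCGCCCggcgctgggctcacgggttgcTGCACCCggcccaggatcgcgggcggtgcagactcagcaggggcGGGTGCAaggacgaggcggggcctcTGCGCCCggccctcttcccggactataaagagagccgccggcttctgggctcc

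MT2A and MT1X each held 4 metal response element cores in this window. At least 1 core stood in 17.1% of all 35116 promoters of this length and in 25.3% of the 6366 kept genes, and at least 4 cores in 0.137% and 0.267%. In the metal list, 8 of 13 members with a promoter in the table held at least 1. A heat shock element core stood in 6.73% of all promoters and 4.63% of kept genes, and in 3 of 19 heat shock chaperones, HSPA1A, HSPA8 and DNAJB6; no core says only that these letters are not in this window. A match is a description of the sequence, and the footprint to input ratio does not measure transcription.

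**Figure D3:**
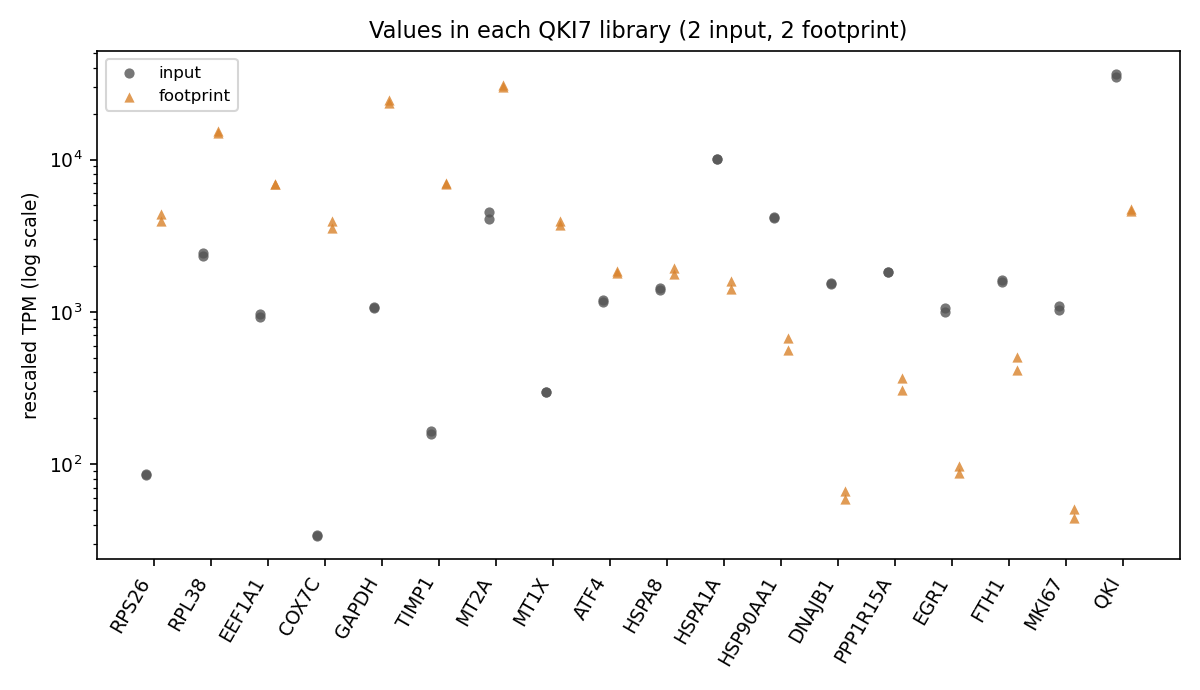
Value of 18 named genes in each of the 4 QKI7 libraries, in rescaled TPM on a log axis (circles, inputs; triangles, footprints). MT2A and HSPA1A are both abundant in the inputs, but MT2A footprints lie above its inputs and HSPA1A footprints below; the replicates of a kind lie close together in every gene shown.

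Stress regulators with upstream reading frames were mostly near the typical row. Of 13 kept members 2 were higher and 10 lower, close to the 11.9% and 73.9% of all rows, with a median 0.22 above all rows. ATF4, the transcription factor translated when eIF2 is phosphorylated, had 1162 and 1203 rescaled TPM in the inputs and 1850.2 and 1799.5 in the footprints, a log2 ratio of 0.62 (adjusted p = 1.29e-05). That lay 2.08 above the median of all rows, and it dropped to 0.11 (adjusted p = 0.0799) among rows with a footprint of at least 0.2 TPM, where the scale differs. ATF5 was the highest of the list at 0.97. PPP1R15A, the GADD34 subunit that reverses eIF2 phosphorylation, was the lowest, with 1818 and 1835 in the inputs and 305 and 366 in the footprints (log2 ratio -2.43, adjusted p = 3.35e-07). DDIT3, which encodes CHOP, had 597 and 625.5 in the inputs and 263 and 252 in the footprints, at -1.23, and 0.29 under median-of-ratios scaling (adjusted p = 0.0204).

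Among 19 kept targets of ATF4, 4 were higher and 9 lower, beside 11.9% and 73.9% of all rows, and 18 lay above the median of all rows. The list's median lay 0.955 above that of all rows, but at 0.0 relative to it among rows with a footprint of at least 0.2 TPM. SHMT2, the mitochondrial serine hydroxymethyltransferase, was highest at 1.41, with 63.9 and 68.7 rescaled TPM in the inputs and 199.5 and 169.3 in the footprints. SESN2 was lowest at -1.46, with no call under median-of-ratios scaling (-0.07). EPRS, a tRNA synthetase, stood at -0.35 with an adjusted p of 0.0224, and at 1.09 under median-of-ratios scaling.

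Chaperones of the endoplasmic reticulum had 5 of 19 members higher and 12 lower (median 0.54 above all rows). MANF stood highest at 1.62, HSPA5, the HSP70 of this compartment, at 1.11, and HYOU1 lowest at -2.26. HSPA5 had 409 and 410.2 rescaled TPM in the inputs and 875 and 904 in the footprints. Extracellular matrix mRNAs, whose proteins also enter this compartment, had 4 of 24 higher and 18 lower, with a median of -0.10 relative to all rows. Over all rows 11.9% were higher and 73.9% lower, close to the shares of the matrix list. TIMP1, a secreted metalloproteinase inhibitor, was the exception in size: 157 and 165 in the inputs and 6963 and 6948 in the footprints, a log2 ratio of 5.39 (adjusted p = 6.58e-09). CTGF stood at 2.49, and COL5A1, a long fibrillar collagen, lowest at -3.20.

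QKI, the overexpressed gene, took 3.65% and 3.49% of the kept inputs and 0.460% and 0.475% of the footprints. Its row held 36500.2 and 34922 rescaled TPM in the QKI7 inputs and 4604 and 4750.1 in the footprints, a log2 ratio of -2.93 (SE 0.075, adjusted p = 9e-08). In vector cells it held 75.2 and 80.7 in the inputs and 88.3 and 102 in the footprints, a log2 ratio of 0.27. The table has 1 row for QKI, so RNA of the construct and of the endogenous gene, and the isoforms, cannot be told apart. The ratio differed between the constructs by -3.20 (limma adjusted p = 5.39e-05). The other kept STAR proteins were KHDRBS1 at 0.20 (adjusted p = 0.138), KHDRBS3 at -0.87 and the splicing factor SF1 at -1.61; KHDRBS3 turned to 0.56 and SF1 lost its call under median-of-ratios scaling.

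Of 28 mRNAs of stress granule proteins 23 were lower in footprints and 2 higher, beside 73.9% and 11.9% of all rows, with a median 0.11 above all rows. ATXN2 was lowest at -2.69, and G3BP1, a core scaffold of stress granules, did not pass the test (-0.10, adjusted p = 0.292). The writers, erasers and readers of m7G and m6A, chemical marks on RNA, had 1 of 19 higher and 15 lower (median 0.21 above all rows). The 1 was TRMT112, an activating partner of several methyltransferases, at 2.40, and the lowest was RBM15, an m6A writer subunit, at -3.23. Of 29 splicing factors of the hnRNP and SR families 7 were higher and 19 lower (median 0.40 above all rows), with SRSF3 highest at 2.63.

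The Hippo pathway, a kinase cascade that restrains growth, had a median of -0.40 relative to all rows, and 8 of its 22 kept members lay above the median of all rows. None was called higher and 20 were called lower, beside 11.9% and 73.9% of all rows. Under median-of-ratios scaling 3 were higher and 9 lower, beside 29.9% and 33.1% of all rows. TAOK1, an upstream kinase, had 150.3 and 141 rescaled TPM in the inputs and 8.53 and 8.46 in the footprints (log2 ratio -3.48, adjusted p = 2.16e-06). YAP1, the effector of the pathway, stood at -0.96 and at 0.39 under median-of-ratios scaling (adjusted p = 0.0726), its DNA-binding partner TEAD1 at -1.97, and MOB1A, the highest, at 0.15 (adjusted p = 0.396).

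Of 34 mitosis and spindle genes 4 were higher and 25 lower, close to the 11.9% and 73.9% of all rows, and their median was -0.095 relative to all rows. MKI67, which encodes a very large chromosome-coating protein, had 1086 and 1027 rescaled TPM in the inputs and 44.3 and 50.8 in the footprints (log2 ratio -4.34, adjusted p = 3.98e-08). CDK1, a small kinase, was the highest at 1.84, from 37.8 and 34.7 to 123 and 166. DNA replication genes had 8 of 28 higher and 13 lower, with a median 1.007 above all rows: PCNA, the sliding clamp, stood at 3.66 and POLE, the catalytic subunit of polymerase epsilon, at -3.42.

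Immediate early genes, which cells transcribe within minutes of a stimulus, had 2 of 18 higher and 10 lower, with a median 0.19 above all rows. EGR1 had 992 and 1057 rescaled TPM in the inputs and 97.2 and 88.0 in the footprints (log2 ratio -3.40, adjusted p = 1.81e-07). FOSB stood at -3.09, and IER3 was highest at 1.08. Cholesterol genes had 3 of 16 higher and 8 lower (median 0.97 above all rows), p53 targets 4 of 17 and 10 (0.67 above), and NF-kappaB feedback genes 0 of 9 and 8 (0.12 above). These shares stand beside 11.9% higher and 73.9% lower over all rows.

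Nuclear lncRNAs had the lowest median of the lists. Of 9 kept members 0 were higher and 8 lower, near the 11.9% and 73.9% of all rows for so few members. Their median was -0.85 relative to all rows. MALAT1, retained in nuclear speckles, had 19757 and 18817 rescaled TPM in the inputs and 568 and 520 in the footprints (log2 ratio -5.14, SE 0.060, adjusted p = 4.24e-09). NEAT1, the scaffold of paraspeckles, stood at -3.99 and TUG1 at -3.55. The 240 kept lncRNAs of all kinds had a median of -2.01, with 19 higher and 191 lower, and the 196 transcribed pseudogenes a median of -2.44.

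Host transcripts of snoRNAs, spliced non-coding RNAs many of which start with a TOP tract and reach ribosomes, were mostly higher. Of 12 kept members 8 were higher and 1 lower, beside 11.9% and 73.9% of all rows. The median log2 ratio was 0.895, or 2.35 above all rows, and tested against a log2 ratio of 1 only 1 member was higher. SNHG8 had 44.7 and 45.3 rescaled TPM in the inputs and 675 and 630 in the footprints (log2 ratio 3.72). SNHG12 was the lowest at -1.33, and 0.15 under median-of-ratios scaling. The snoRNAs in their introns are separate rows and were left out by the rule.

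The highest footprint rows were not all mRNAs. VTRNA1-1, a vault RNA transcribed by RNA polymerase III, had 265 and 252 rescaled TPM in the inputs and 95558 and 86402 in the footprints. Its log2 ratio of 8.43 was the highest of all (adjusted p = 8.03e-10), and it alone took 9.56% and 8.64% of the kept footprints. MTRNR2L8 and MTRNR2L2, nuclear copies of a stretch of mitochondrial ribosomal RNA, stood at 8.20 and 5.77, and reads of the mitochondrial RNA and of these rows cannot be told apart. PNMA6A at 7.92, DICER1 at 7.09 and GRK3 at 6.71 were the highest protein-coding rows without an input minimum of 10 TPM; PNMA6A and MTRNR2L8 were named after their values were seen.

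DICER1, the ribonuclease that makes microRNAs, had 76.4 and 72.9 rescaled TPM in the inputs and 11241 and 10445 in the footprints. The table does not say where in a gene the reads lie, so coding and other reads cannot be told apart. RPPH1, the RNA of RNase P, was the most abundant non-coding row of the inputs at 35005 and 41518 and had 4793 and 3821 in the footprints (log2 ratio -3.15). RMRP, the RNA of RNase MRP, had 8026 and 8692 in the inputs and 7491 and 7102 in the footprints, and did not pass the test (adjusted p = 0.06).

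The lowest rows with at least 10 TPM of input were mainly members of recent gene families. SMG1P1, a pseudogene of the kinase SMG1, had 883 and 817 rescaled TPM in the inputs against 8.53 and a listing at 0 in the footprints (log2 ratio -6.70, adjusted p = 1.00e-05). RGPD6, CBS, POTEKP, CCZ1 and NBPF9 were listed at 0 in both QKI7 footprints, with inputs between 254 and 326, and LOC642423, NPIPB5 and CDR1 in 1 of the 2. ANKRD20A8P, POTEM, POTEE, POTEF and NBPF8 had log2 ratios of -5.90, -5.16, -5.12, -4.56 and -4.94. Most of these genes have near-identical copies, how shared reads were divided is not given, and these values are uncertain. CDR1 lies opposite a circular antisense RNA, and without strand the 2 cannot be told apart. BDP1, a subunit of the polymerase III factor TFIIIB, is a single-copy gene with 575 and 568 in the inputs and 13.6 and 13.5 in the footprints (log2 ratio -4.95).

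Across the protein-coding rows the ratio fell with the length of the gene. In 5 equal classes of RefSeq gene span, from the shortest to the longest, the median log2 ratio was -0.57, -1.15, -1.44, -1.68 and -1.98. The shortest class, up to 11421 bases, held 446 rows called higher and the longest 37. Span includes introns and is not the length of the mRNA, which was not used here. In 5 equal classes of input level the medians were -1.04, -1.17, -1.39, -1.69 and -1.95, so the median ratio was lower in classes with more input. Input is part of the ratio, and the 5 added to each value understates the ratios of low rows, so this is a description. The part of that constant in this trend was not tested. At the input minimum itself, the 17 rows just inside it had a median of -0.89 and the 44 rows just outside it -1.24.

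**Figure D4:**
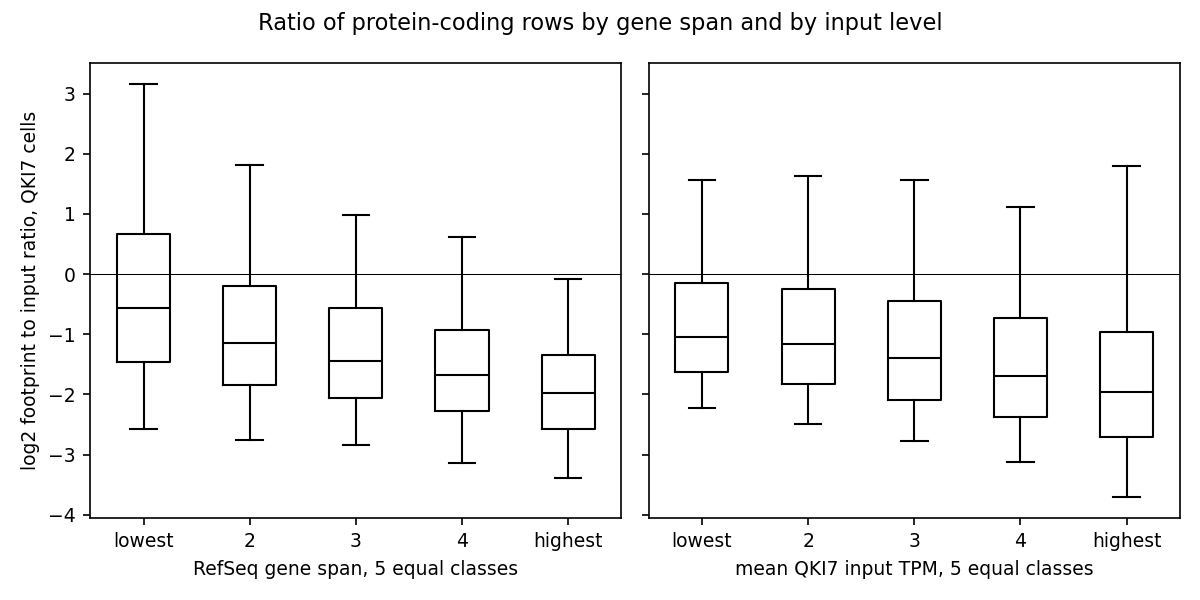
Log2 ratio of footprint to input in QKI7 cells for protein-coding rows in 5 equal classes of RefSeq gene span (left) and of mean QKI7 input TPM (right); boxes run from the 25th to the 75th percentile with the median inside, whiskers from the 5th to the 95th. The median falls from -0.57 to -1.98 with span and from -1.04 to -1.95 with input level.

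The pattern was much the same in vector cells. Across the 8202 rows the ratios of the 2 constructs correlated at r = 0.941 (Spearman rho 0.910), a description across genes, which are not independent. Of the rows called in QKI7 cells, 858 were called higher and 5804 lower in both constructs and 26 in opposite directions. The median ratio of vector cells on the same rows was -1.61. The rows were kept for their QKI7 input, which leans towards RNAs more abundant in QKI7 cells.

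The ratio itself differed between the constructs for few rows. In the limma test of the difference, 348 rows had a higher ratio in QKI7 cells (4.24%) and 59 a lower one (0.719%). Under median-of-ratios scaling the counts were 178 (2.17%) and 154 (1.88%), so the excess of higher rows depends on the scaling. Without 1 of the 4 input libraries the counts of higher and lower rows were between 16 and 25 and between 2 and 5, for each of vector and QKI7 inputs 1 and 2. Without vector footprint 1 or 2 there were 628 and 680 higher rows and 110 and 116 lower ones, and without QKI7 footprint 1 or 2 there were 120 and 155 lower ones.

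Of the 348 rows, 248 lay below the median ratio of vector cells, and of the 59, 51 lay above it. The vector ratio is part of the difference, so this too is a description. The lists with the most members past the threshold were the actin cytoskeleton (8 higher, 0 lower of 30), the small-subunit proteins (6 higher, 1 lower of 30) and the large-subunit proteins (6 higher, 0 lower of 45). TRiC had 0 higher and 3 lower of 8. These counts stand beside 4.24% higher and 0.719% lower over all rows, or 2.17% and 1.88% under median-of-ratios scaling.

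DICER1, HDGFRP3 and GRK3 had the largest higher ratios in QKI7 cells among rows with a footprint of at least 0.2 TPM in both constructs. DICER1 stood at 7.09 against 4.90 in vector cells (difference 2.19, adjusted p = 0.000204), HDGFRP3 at 3.35 against 0.56 (2.79, adjusted p = 0.00103) and GRK3, a receptor kinase, at 6.71 against 3.97 (2.74, adjusted p = 0.0023). These 3 kept the call without any 1 library. GID8, FBRSL1, RNF220, YME1L1, HSF1, MTA1 and GADD45GIP1 followed, with differences from 1.65 to 1.77. HSF1, the heat shock transcription factor, had a log2 ratio of -0.86 in QKI7 cells and -2.53 in vector cells, and HSPA1A -2.74 and -3.53 (difference 0.79, adjusted p = 0.0142). HSPA1A and HSF1 each lost the call when any 1 of the 4 input libraries was left out, and of the 43 called differences among named genes 34 lost the call in at least 1 of these fits.

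In the other direction QKI was followed by PDZD11, UXT, TOMM6, PRIM2, SLC25A3, NDUFB9, RPS13, RFC3 and HINT1, with differences from -1.29 to -1.01. UXT, a prefoldin-like chaperone, stood at 1.44 in QKI7 cells and 2.70 in vector cells, and TOMM6, a subunit of the mitochondrial import pore, at 2.19 and 3.44. RPS13 had 5.24 against 6.25 (difference -1.02, adjusted p = 0.00455). CCZ1, listed at 0 in the QKI7 footprints, had a difference of -3.95 and has a near-identical copy. FTH1 and FTL were among the called rows, at -1.79 against -3.10 and -1.36 against -2.20, and their ratios were higher in QKI7 cells by 1.31 and 0.83.

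**Figure D5:**
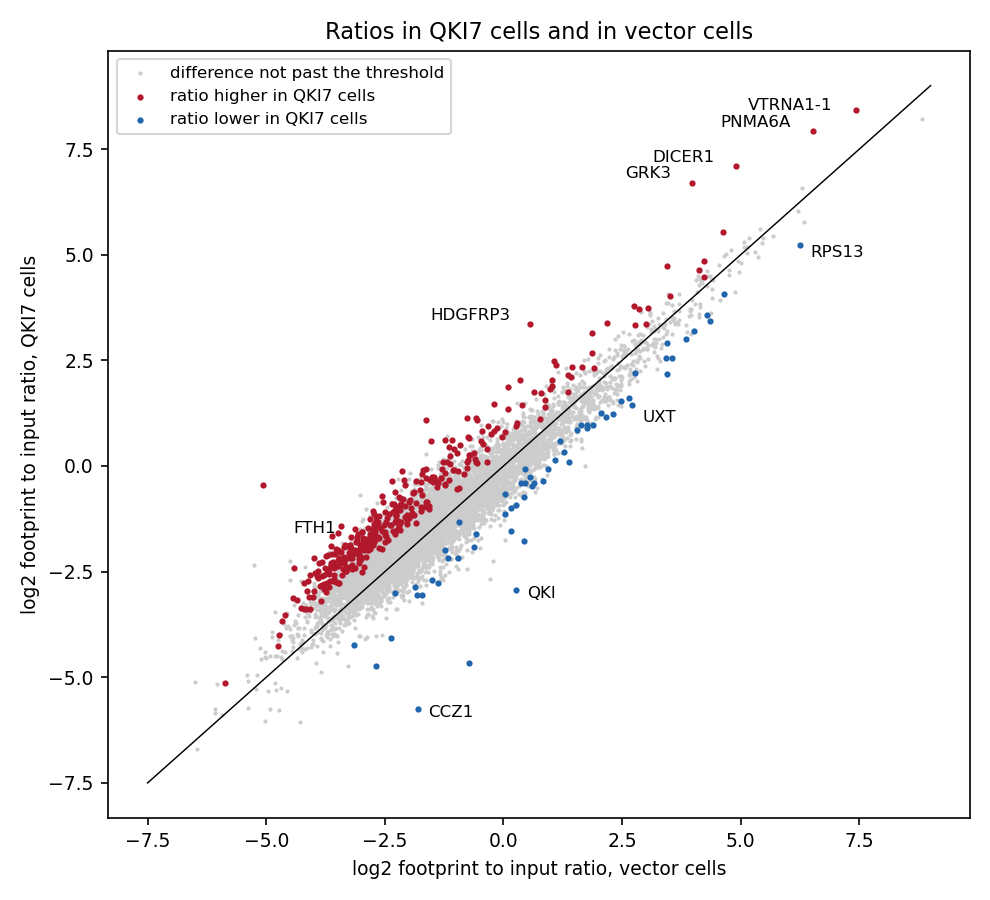
Log2 ratio of footprint to input in QKI7 cells against the same ratio in vector cells for the 8202 kept rows; coloured points are the 348 rows with a higher and the 59 with a lower ratio in QKI7 cells by limma. Most rows follow the line of equal ratios (r = 0.941), with QKI and CCZ1 far below it and DICER1, GRK3 and HDGFRP3 above.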

How the data were processed

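The authors deposited 1 table of TPM for 8 libraries. Per the submitters' processing notes, STAR, RSEM 1.2.31 and GRCh38 were used; settings, annotation and strand handling are not given in the sources used here. TPM keeps no read depth, so the depth is unknown and no counting interval is given. Groups came from the sample titles. Rows were kept and rescaled as described in the report, to 1000000 per library. Ratios were tested with limma 3.58.1 in R 4.3.3 (lmFit on log2(value + 5) over 8202 rows and all 8 libraries as 4 group means, with 4 residual degrees of freedom, eBayes with a variance trend). Two-sided p-values were adjusted over all rows after Benjamini and Hochberg. RefSeq (GRCh38.p14) gave classes, spans and sequences: 7709 rows matched by symbol and 373 through an older symbol.

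The members and the 31 gene lists were chosen with earlier results of these data known, so a list's count supports nothing by itself. Named genes are the 10 highest and 10 lowest ratios, over all rows and over protein-coding rows, among called rows with at least 10 TPM of input whose libraries do not overlap, up to 4 members of each list farthest from the median with its highest and lowest, a set of stress and reference genes, and the 10 largest differences per direction between constructs with footprints of at least 0.2 TPM. Not every gene that this rule names is reported here. Alternatives changed the pseudocount, scaling, filters, variance trend, replicate block, null value and libraries used. Mitochondrially encoded mRNAs were not analysed here.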

Additional observations from a re-analysis of the deposited data

Results flagged for a closer look

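For these genes named in the report, the log2 ratio of footprint to input differed between QKI7 and vector cells by limma's test of the difference (QKI7 minus vector, adjusted over all rows). No explanation was tested.

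Among the translation and energy genes, the difference was 0.80 for RPL38, 0.88 for RPL13A, 0.89 for RPS26, 0.69 for ATP5E and 0.24 for GAPDH. It was -1.02 for RPS13, -0.73 for PSMA4, -0.55 for PGK1, -1.04 for NDUFB9, -1.07 for SLC25A3 (a mitochondrial phosphate carrier) and -0.71 for TPT1. Of the ribosomal protein rows called, 6 of the large and 6 of the small subunit had a higher ratio in QKI7 cells, and only RPS13 a lower one. The lists hold 45 and 30 kept rows. Higher calls also outnumbered lower ones over all rows (4.24% and 0.719%), and that excess depends on the scaling (2.17% and 1.88% under median-of-ratios scaling).

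Among stress and cytoskeletal genes, the difference was 1.31 for FTH1, 0.83 for FTL, 0.79 for HSPA1A, 1.67 for HSF1 and 0.35 for HSPA5, and -0.58 for the peroxiredoxin PRDX1. It was 0.52 for TMSB4X, 0.41 for VIM (the intermediate filament protein vimentin), 0.50 for LGALS1 and -0.92 for TUBA1C.

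The overexpressed QKI had the difference with the lowest adjusted p of those named (-3.20, adjusted p = 5.39e-05). CCZ1 stood at -3.95, against QKI7 footprints listed at 0. Other genes with a lower ratio were PDZD11 (-1.29), UXT (-1.26), TOMM6 (-1.25), PRIM2 (-1.15), RFC3 (-1.01) and HINT1 (-1.01).

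Other genes with a higher ratio in QKI7 cells were HDGFRP3 (2.79), GRK3 (2.74), DICER1 (2.19), GID8 (1.77), FBRSL1 (1.71), RNF220 (1.70), YME1L1 (1.68), MTA1 (1.67), GADD45GIP1 (1.65) and PNMA6A (1.41). Among non-coding RNAs, VTRNA1-1 stood at 1.00, RMRP at 0.64, MALAT1 at 0.73 and NEAT1 at 0.73.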

How the results depend on the processing

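For QKI7 footprints against inputs, median-of-ratios scaling gave 2453 rows higher and 2712 lower in place of 979 and 6062. Testing against a log2 ratio of 1 gave 471 and 3908, an input minimum of 5 TPM left 2135 rows with 245 and 1790, and a footprint minimum of 0.2 TPM left 2903 rows with 1623 lower. Leaving out 1 library gave 850 to 1020 higher and 5555 to 6191 lower. For the difference between constructs (348 higher, 59 lower), median-of-ratios scaling gave 178 and 154, a fit without a variance trend 153 and 22, and rescaling over all rows outside the dropped classes 167 and 111. Leaving out 1 library gave 16 to 680 higher and 2 to 155 lower. With the replicate block the difference gave 154 and 12 and the footprint ratio 953 and 6059. The deviations of same-numbered libraries correlated across rows at r = -0.009 in QKI7 cells and -0.004 in vector cells. With so few libraries this cannot decide whether same-numbered libraries are paired, and the labels give only a replicate number. Of the named ratios, the block ended the call of EPRS, and of the 43 named differences it ended 18.

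Some named log2 ratios turned sign. Under median-of-ratios scaling RPL13A stood at 0.31, PSMD7 at 0.21, FTL at 0.17, DDIT3 at 0.29, EPRS at 1.09, G3BP1 at 1.40, KHDRBS3 at 0.56, YAP1 at 0.39, SNHG12 at 0.15, RMRP at 1.34, TPT1 at 0.82, VIM at 1.02, HSF1 at 0.62, PRIM2 at 0.68 and RFC3 at 1.32, and the difference for GAPDH at -0.008. With the footprint minimum and with rescaling over all non-dropped rows, RPS6 stood at -0.15 and -0.13, HSPA8 at -0.13 and -0.11, KHDRBS1 at -0.30 and -0.27, ACTB at -0.09 and -0.069 and PDZD11 at -0.40 and -0.36; MOB1A stood at -0.25 with that rescaling, and PDZD11 ranged from -0.025 to 0.194 when 1 library was left out. With protein-coding rows only or rescaling over them, G3BP1 stood at 0.009 and RFC3 at 0.04. EPRS and RNF220 lost their call without some single libraries. Of 43 named differences, 34 lost the call without at least 1 library. Of the 31 lists, 15 had a median that changed sign relative to all rows in at least 1 setting; the footprint minimum did so for heat shock chaperones (-0.87), stress granule proteins (-1.17), splicing factors (-0.83) and upstream-reading-frame regulators (-0.44), but for neither ribosomal protein list. Footprints near the 2-decimal rounding limit low rows.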

Other observations

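RNAs below the input minimum held 34.0% and 33.7% of the footprint TPM outside the dropped classes, against 6.67% and 6.66% of the input TPM. Most of that level was in few rows. RELN had 638 and 637 TPM in the QKI7 footprints and 87.2 and 95.1 in the vector footprints, with inputs between 0.02 and 0.04. The vault RNA VTRNA1-2 had 613 and 622 TPM in QKI7 footprints and 497 and 524 in vector footprints. VAT1L had 129 and 97.4 against 41.2 and 35.2. These rows are outside the ratios of the report because their input is below 1 TPM.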
